A study of Mus musculus with 2 samples.

Results

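The 10 genes described here encode chaperones and enzymes that fold, hydroxylate and crosslink collagen: Serpinh1, Fkbp10, P4ha1, P4ha2, Plod1, Plod2, Plod3, Lox, Loxl1 and Loxl2. They were selected by gene symbol, and all 10 were found among the 35397 rows of the expression table that name 1 gene. The table has 35798 rows in all. RNA sequencing was done on 2 libraries of stromal cells from adult mouse bone marrow on a C57BL/6 background. The cells lacked the surface antigens CD45, CD31 and Ter119 and carried GFP under nestin regulatory sequence (Nes-gfp), a reporter of perivascular mesenchymal cells. The JAK2 V617F library came from Nes-gfp;Mx1-cre;JAK2-V617F mice, in which the Mx1 promoter drives Cre recombinase in cells that respond to interferon. The control library came from littermates labelled Nes-gfp. Both groups received pIpC, a synthetic double-stranded RNA that induces interferon, and cells were collected 6 weeks later. The labels give no Cre for the controls, so the effects of Cre and of the mutant kinase cannot be told apart. Cells of 3 animals were pooled for each of the 2 libraries, 1 per genotype. No value below has a replicate error, no test between the genotypes was possible, and "higher" and "lower" describe 2 pools.

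Collagen chains are modified in the endoplasmic reticulum before they fold into the collagen helix. Prolyl hydroxylases (the P4ha catalytic subunits with the subunit P4hb) modify prolines, which stabilises the helix, and lysyl hydroxylases (Plod) modify lysines, which become sites of glycosylation and crosslinking. Serpinh1 (HSP47) is a chaperone specific for collagen, and Fkbp10 (FKBP65) is a prolyl isomerase of the same compartment. After secretion, lysyl oxidases (Lox and the Loxl paralogs) oxidise lysines in collagen and elastin and so start the covalent crosslinks of the matrix. In bone, these steps act mainly on collagen I, the principal matrix protein of osteoblasts, and loss of several of these genes in humans gives brittle bone.

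The values were FPKM as deposited by the authors, a density of sequenced fragments scaled by transcript length and by library size. Depth was estimated as the FPKM denominator, read from the steps between low FPKM values. It came to about 6173000 fragments for the JAK2 V617F library and about 5263000 for the control library. These estimates change with the length offset assumed, and they equal sequenced depth only if the values were not rescaled between libraries. Of the genes for the antigens used to remove cells, Ptprc and Pecam1 were not at 0, and Ly76, the gene tied to Ter119, was not analysed here. Ptprc, which encodes CD45, was at 8.79 FPKM in the JAK2 V617F library and 5.38 FPKM in the control library. Pecam1, which encodes CD31, was at 19.0 and 17.1 FPKM in those libraries. Nes was at 3.00 FPKM in the JAK2 V617F library and 4.84 FPKM in the control library. All 6 mesenchymal stromal markers (Lepr, Cxcl12, Pdgfra, Pdgfrb, Kitl and Ebf3) were above 10 FPKM in both libraries.

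Upstream sequences of 5 of the 10 genes were matched in RefSeq (GRCm38.p6), those of P4ha1, P4ha2, Plod1, Plod3 and Serpinh1. The 250 bases before the annotated start are shown for the gene lowest relative to its control value (P4ha2), its paralog (P4ha1) and the gene with the largest excess (Plod1). Capitals mark ACGTG or GCGTG on either strand (read as CACGT or CACGC on the other), the core of the element bound by hypoxia-inducible factors, because P4ha and Plod genes are known hypoxia targets. The windows were chr11:54100674-54100923 on the plus strand for P4ha2, chr10:59323046-59323295 on the plus strand for P4ha1 and chr4:147936777-147937026 on the minus strand for Plod1. The RefSeq start used for P4ha2 lies inside its deposited locus, which begins farther upstream.
P4ha2: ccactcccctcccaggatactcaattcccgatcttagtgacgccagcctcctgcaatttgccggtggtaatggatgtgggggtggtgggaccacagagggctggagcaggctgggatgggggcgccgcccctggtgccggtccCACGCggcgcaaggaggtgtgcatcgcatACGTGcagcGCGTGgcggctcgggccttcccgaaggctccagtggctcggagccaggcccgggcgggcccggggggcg
P4ha1: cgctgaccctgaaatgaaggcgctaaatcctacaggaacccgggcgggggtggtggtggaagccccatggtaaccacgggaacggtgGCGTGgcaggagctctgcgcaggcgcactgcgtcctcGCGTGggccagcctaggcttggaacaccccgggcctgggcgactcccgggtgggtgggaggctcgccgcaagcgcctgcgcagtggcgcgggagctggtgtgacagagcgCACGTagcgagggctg
Plod1: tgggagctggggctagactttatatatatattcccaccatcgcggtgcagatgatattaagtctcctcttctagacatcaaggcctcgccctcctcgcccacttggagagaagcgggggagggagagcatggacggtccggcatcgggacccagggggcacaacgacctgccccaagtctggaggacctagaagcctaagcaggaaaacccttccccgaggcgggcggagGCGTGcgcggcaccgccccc
The P4ha2 and P4ha1 windows each held 3 matches, and the Plod1 window held 1. At least 1 match lay in all 5 of the windows that were matched, against 44.0% of the 21262 windows of protein-coding genes, and 3 or more lay in 8.41% of them. All letters were searched on both strands. The GC box letters GGGCGG were found in 4 of the 5, against 42.6% of all windows. CCAAT was found in 1 (Plod3, against 35.4%) and TATAAA in 1 (Plod1, against 11.6%). GAANNTTC, the letters of a heat shock element, were in none of the 5, against 6.17% of all windows. CCACG lay in 3 of the 5, against 32.6%, and it can overlap the capitals. These windows were rich in G and C, at 70% in P4ha2, 69.6% in P4ha1 and 61.6% in Plod1, against a median of 55.6% over all windows. A match describes these letters and shows no binding.

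All 10 genes were expressed at 4.55 FPKM or more in both libraries, so each passed the minimum of 1 FPKM in at least 1 library. Their levels spanned 4.55 to 125.6 FPKM in the JAK2 V617F library and 7.59 to 134.1 FPKM in the control library. Serpinh1 and Plod2 dominated both, with 59.8% of the summed FPKM of the 10 genes in the JAK2 V617F library and 61.1% in the control library. The JAK2 V617F library ranked them, high to low, as Plod2, Serpinh1, Fkbp10, Plod3, Lox, Plod1, Loxl1, P4ha1, P4ha2 and Loxl2. The control order was Serpinh1, Plod2, Lox, Fkbp10, P4ha2, Plod3, P4ha1, Loxl1, Loxl2 and Plod1. With 1 library per genotype, no spread between animals says which neighbours in these orders differ.

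**Figure D1:**
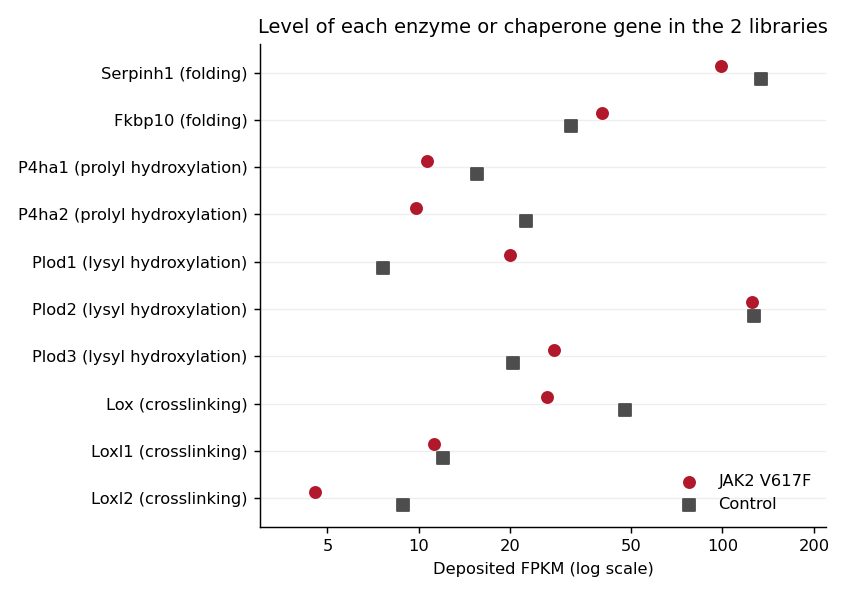
FPKM of each gene (log axis) in the JAK2 V617F library (circles, upper) and the control library (squares, lower), 1 library each, with no error bars because there were no replicates. P4ha2 lay to the left of its control value, at 9.76 against 22.5 FPKM, and Plod1 to the right, at 19.97 against 7.59 FPKM.

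Differences were computed as log2((JAK2 V617F FPKM + 1)/(control FPKM + 1)), and a gene was called at 2-fold on this scale. By this rule 1 of the 10 genes was lower (P4ha2), 1 was higher (Plod1) and 8 lay within 2-fold. Among 12435 protein-coding genes that passed the same minimum, 8.68% were called lower and 10% higher, 18.7% in either direction. Over all 15118 rows that name 1 gene and passed, the shares were 11.4% lower, 13.8% higher and 25.2% in either direction. The 2 calls among 10 genes (20%) are therefore close to the background share. The ratios lay below 0 for 7 genes and above 0 for 3, with a median of -0.26, against a median of -0.04 and 52.5% below 0 over all protein-coding genes. In sorted bulk samples, fewer cells of a type and less RNA per cell cannot be told apart. With the libraries set to equal FPKM sums over all rows, the background median was 0.13 and that of the 10 genes -0.09. Of the background calls, 66.3% were then higher, against 53.6% on the deposited scale.

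**Figure D2:**
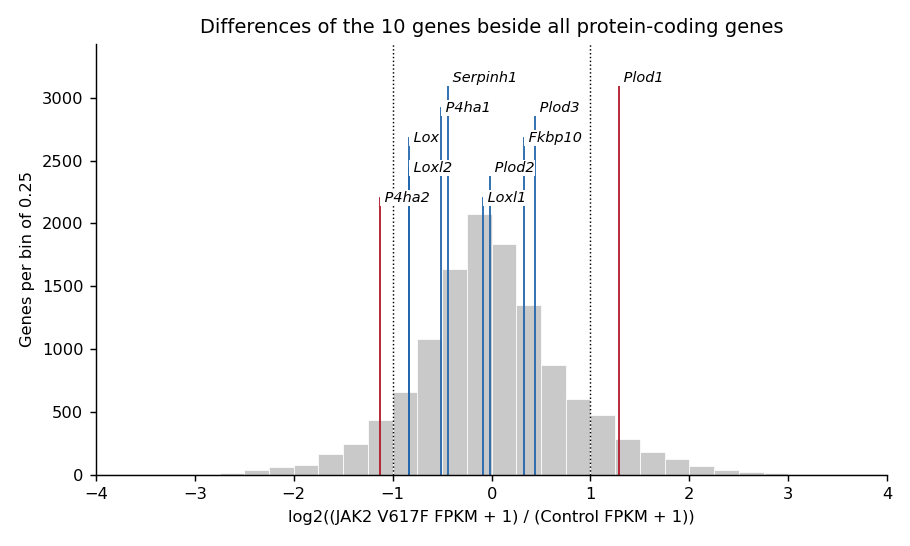
Number of protein-coding genes per bin of log2((JAK2 V617F FPKM + 1)/(control FPKM + 1)) (grey; 14 genes beyond 4 in either direction are in the end bins), with a line for each of the 10 genes. Dotted lines mark 2-fold; P4ha2 (-1.13) and Plod1 (1.29) lie outside them, and the other 8 lie between -0.83 and 0.44.

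Both prolyl hydroxylase subunits among the 10 genes had lower values in the JAK2 V617F library, P4ha2 by more than 2-fold. P4ha2, the catalytic subunit that is prominent in cartilage and bone cells, was at 9.76 FPKM in the JAK2 V617F library and 22.5 FPKM in the control library. The log2 ratio was -1.13, lower than that of 93.4% of protein-coding genes. P4ha1, the catalytic subunit of most other tissues, was at 10.6 FPKM in the JAK2 V617F library and 15.5 FPKM in the control library (log2 ratio -0.51). Both ratios lay below 0 under every scaling tried. P4ha2 came within 2-fold when the libraries were set to equal sums over all rows (-0.96). With a pseudocount of 5 FPKM it was also within 2-fold (-0.90). It was called lower under the 3 other scalings, where the ratio lay between -1.09 and -1.02. The rows lie at 54100095 to 54131665 on chromosome 11 for P4ha2 and at 59323296 to 59373304 on chromosome 10 for P4ha1 (GRCm38, the build of the deposited loci), and no other annotated gene shares exons with either.

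Counting precision was estimated by assuming that all fragments came from the longest annotated coding transcript of the gene. On this assumption P4ha2 had about 127 fragments in the JAK2 V617F library and about 249 in the control library. Its FPKM ratio of 0.434 had a 95% interval of 0.348 to 0.541 (exact Clopper-Pearson). For P4ha1 about 255 and 317 fragments, JAK2 V617F first, gave a ratio of 0.685 (0.579 to 0.811). The intervals of the paralogs did not overlap. They cover counting error only, and reads copied during cDNA amplification are not independent molecules, so they are too narrow as errors of the genotypes.

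The nominal order of the paralogs also differed, a comparison within a library that scaling between libraries cannot alter. P4ha2 was the higher in the control library, where P4ha1 was at 0.691 of its FPKM. By estimated fragments P4ha1 had more there, about 317 against 249 for P4ha2. In the JAK2 V617F library P4ha1 was the higher by only 1.09-fold, from about 255 estimated fragments against 127 for P4ha2. The order in the JAK2 V617F library is not resolved. In both libraries the order and the family shares also rest on the transcript lengths used. P4ha2 made up 47.2% of the summed FPKM of the 3 P4ha genes in the JAK2 V617F library and 57.2% in the control library. P4ha1 made up 51.4% and P4ha3 1.35% in the JAK2 V617F library, against 39.5% and 3.32% in the control library. P4ha3, a low-level paralog outside the 10 genes, was at 0.280 FPKM in the JAK2 V617F library and 1.30 FPKM in the control library, from about 4 and 15 fragments. The beta subunit P4hb, which also serves as protein disulfide isomerase, was at 140.5 FPKM in the JAK2 V617F library and 157.2 FPKM in the control library (log2 ratio -0.16, and slightly above 0 with equal sums over all rows).

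Among the lysyl hydroxylases, Plod1 was higher in the JAK2 V617F library by more than 2-fold and Plod2 was level. Plod1, which hydroxylates lysines of the collagen helix, was at 19.97 FPKM in the JAK2 V617F library and 7.59 FPKM in the control library. The log2 ratio was 1.29, above that of 94.2% of protein-coding genes, and it was called under all 4 other scalings (1.32 to 1.45) but not with a pseudocount of 5 FPKM (0.99). Plod3, which also carries glycosyltransferase activity, was at 28.0 FPKM in the JAK2 V617F library and 20.4 FPKM in the control library (log2 ratio 0.44). It lay on the same side as Plod1 but within 2-fold. Plod2, the hydroxylase of the telopeptide lysines used for stable bone-type crosslinks, was at 125.6 FPKM in the JAK2 V617F library and 127.1 FPKM in the control library. Its log2 ratio was -0.02 on the deposited scale and above 0 under the 4 other scalings (up to 0.16), so it has no set direction.

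By estimated fragments, the Plod1 ratio of 2.63 (95% interval 2.14 to 3.25, about 380 and 123 fragments, JAK2 V617F first) did not overlap with that of Plod3, 1.37 (1.19 to 1.57). Plod2 had a ratio of 0.988 (0.935 to 1.04) from about 2715 and 2343 fragments. Within the family, Plod1 supplied 11.5% of the FPKM in the JAK2 V617F library and 4.90% in the control library. Plod2 supplied 72.4% and Plod3 16.1% in the JAK2 V617F library, against 81.9% and 13.2% in the control library. Plod2 was therefore the most abundant transcript of the family in both. The summed FPKM of the family was 173.5 in the JAK2 V617F library and 155.1 in the control library. The Plod1 row spans 147909753 to 147936767 on chromosome 4, with no other annotated gene sharing its exons. Exons of Plod3 share 529 bases (11.7% of its exon bases) with Znhit1 on the opposite strand. Znhit1 was at 26.5 FPKM in the JAK2 V617F library and 20.3 FPKM in the control library, nearly the same values as Plod3. The use of strand in counting is not given in the sources used here, so reads from that overlap cannot be assigned to either gene.

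**Figure D3:**
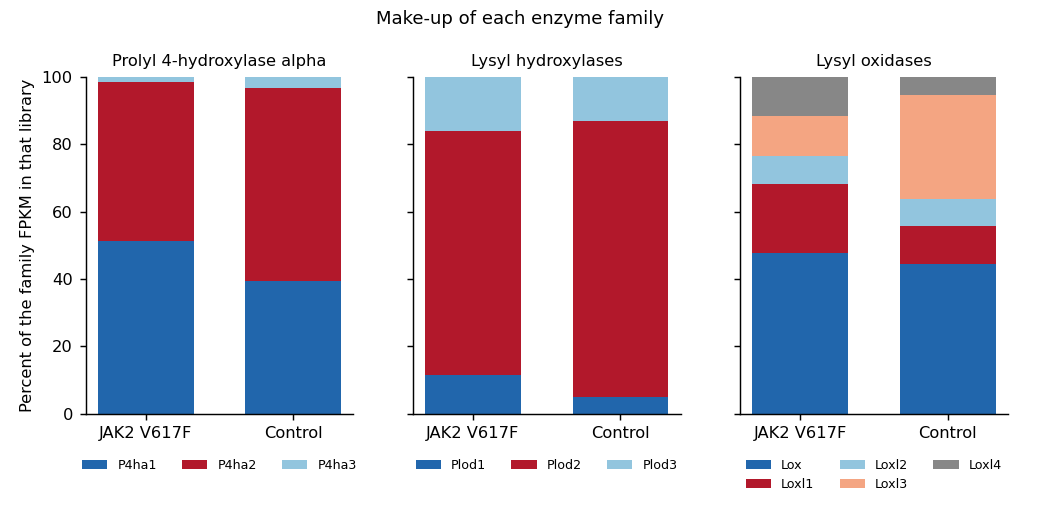
Each gene's FPKM as a percent of its family's summed FPKM in stacked bars for the JAK2 V617F library (left bar of each panel) and the control library (right bar), 1 library each. Plod1 takes 11.5% against 4.90% of the lysyl hydroxylases, P4ha1 51.4% against 39.5% of the prolyl hydroxylase subunits, and Loxl3 11.8% against 30.7% of the lysyl oxidases.

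The folding factors differed in opposite directions, both within 2-fold. Serpinh1, the collagen chaperone, was at 98.5 FPKM in the JAK2 V617F library and 134.1 FPKM in the control library (log2 ratio -0.44). Its percentile among expressed protein-coding genes was 93.9 in the JAK2 V617F library and 95.1 in the control library, so it was abundant in both. Fkbp10 was at 40.1 FPKM in the JAK2 V617F library and 31.6 FPKM in the control library (log2 ratio 0.33). The counting interval of the FPKM ratio was 0.682 to 0.792 for Serpinh1 and 1.12 to 1.44 for Fkbp10, and the signs of both held under every scaling. Serpinh1 exceeded Fkbp10 2.46-fold in the JAK2 V617F library and 4.24-fold in the control library. The Serpinh1 row spans 99345375 to 99353230 on chromosome 7. The Fkbp10 row spans 100415697 to 100441808 on chromosome 11, and 193 of its exon bases (6.58%) are shared with Nt5c3b on the opposite strand.

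The lysyl oxidases among the 10 genes were lower or level, none past 2-fold. Lox, the founding crosslinking enzyme, was at 26.4 FPKM in the JAK2 V617F library and 47.8 FPKM in the control library (log2 ratio -0.83). Loxl2, which crosslinks collagen IV and fibrillar collagen, was at 4.55 FPKM in the JAK2 V617F library and 8.89 FPKM in the control library, also -0.83. Both lay just inside the 2-fold threshold, and 11.9% of protein-coding genes had lower ratios. Loxl1, which is needed for elastic fibre upkeep, was at 11.3 FPKM in the JAK2 V617F library and 12.0 FPKM in the control library (log2 ratio -0.08). Its sign flipped under 2 of the 4 other scalings (up to 0.08), so it has no set direction, while Lox and Loxl2 were below 0 under all of them.

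The FPKM ratio was 0.553 for Lox (95% counting interval 0.504 to 0.608), 0.512 for Loxl2 (0.415 to 0.633) and 0.938 for Loxl1 (0.771 to 1.14). Loxl1 has 1 annotated coding transcript, so its estimate of about 218 and 198 fragments, JAK2 V617F first, needs no choice of isoform. The intervals of Lox and Loxl2 overlapped with each other but not with that of Loxl1. Of the paralogs outside the 10 genes, Loxl3 was at 6.53 FPKM in the JAK2 V617F library and 32.9 FPKM in the control library (log2 ratio -2.17), and it was called lower under every scaling. Loxl4 was at 6.46 and 5.81 FPKM in the same order (0.13). With all 5 genes, the summed lysyl oxidase FPKM was 55.2 in the JAK2 V617F library and 107.4 in the control library, and Loxl3 supplied 11.8% and 30.7% of it. Lox supplied 47.9% in the JAK2 V617F library and 44.5% in the control library and was the highest of the family in both. Exons of Loxl3 share 535 bases (11.6%) with Htra2 on the opposite strand, which was at 64.9 FPKM in the JAK2 V617F library and 95.5 FPKM in the control library. Exons of Loxl2 share 301 bases (5.57%) with the antisense gene Gm27177, and those of Lox share 30 bases (0.628%) with an antisense gene. The rows span 69609171 to 69695833 on chromosome 14 for Loxl2 and 58287723 to 58313212 on chromosome 9 for Loxl1. Lox lies on chromosome 18.

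The collagen I genes, the main substrate of these enzymes in bone, were lower by more than most of the enzymes. Col1a1 was at 1436 FPKM in the JAK2 V617F library and 2784 FPKM in the control library (log2 ratio -0.95), and Col1a2 at 978.0 and 1955 FPKM (-0.998). Their sum in the JAK2 V617F library was 0.509 of that in the control library, whereas the summed FPKM of the 10 genes was 374.7 and 427.5, a ratio of 0.877. The 10 genes together amounted to 15.5% of the collagen I FPKM in the JAK2 V617F library and 9.02% in the control library.

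Set against collagen I of the same library, 9 of the 10 genes stood higher in the JAK2 V617F library, which follows in large part from the lower denominator. The log2 ratio of summed collagen I was -0.97, near the 2-fold threshold. Only 8.68% of all protein-coding genes were called lower at that threshold, so most genes would also stand higher on this measure. The exact share was not counted, and the count of 9 does not set the 10 genes apart. Plod1 amounted to 0.827% of collagen I FPKM in the JAK2 V617F library and 0.160% in the control library. Plod2 amounted to 5.20% and 2.68%, and Fkbp10 to 1.66% and 0.667%, in the same order. P4ha2 alone stood lower, at 0.404% in the JAK2 V617F library and 0.475% in the control library. Lox (1.10% and 1.01%) and Loxl2 (0.189% and 0.188%) were nearly level, so their transcripts were lower by about as much as those of collagen I. Serpinh1 was at 4.08% in the JAK2 V617F library and 2.83% in the control library. With the 11 fibrillar collagen genes as the denominator, Loxl2 was at 0.155% and 0.167%, below its control share, and Lox was at 0.897% in both.

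**Figure D4:**
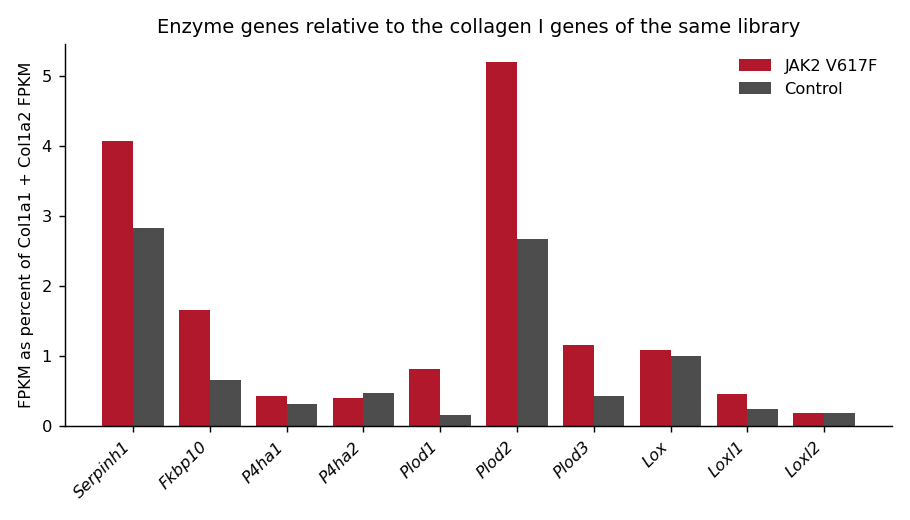
FPKM of each gene as a percent of the summed Col1a1 and Col1a2 FPKM of the same library, for the JAK2 V617F library (left bars) and the control library (right bars), 1 library each. Plod2 stands at 5.20% against 2.68% and Serpinh1 at 4.08% against 2.83%, while P4ha2 is at 0.404% against 0.475%.

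Among the other genes of collagen synthesis, 7 lists were counted in the same way. Of 51 genes at 1 FPKM or more, 6 were called lower (11.8%) and 1 higher (1.96%), beside 8.68% and 10% of all protein-coding genes. The median of their ratios was -0.32, and 35 lay below 0. The background shares apply to each list below as well. The lower calls numbered 3 with equal sums over all rows, where 6.45% of the background was lower and 12.7% higher, and 5 under the 3 other scalings. None of the 10 further genes of procollagen modification was called, and their median was -0.18. Those farthest from 0 were P4ha3 (-0.85) and Crtap, a partner of the prolyl 3-hydroxylase P3h1, at 38.5 FPKM in the JAK2 V617F library and 69.1 FPKM in the control library (-0.83). P3h1 itself, listed under its older symbol Lepre1, was at 34.0 and 39.2 FPKM, and their partner Ppib at 49.7 and 54.5 FPKM, JAK2 V617F first.

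Of the 10 chaperones and regulators of the endoplasmic reticulum, 2 were called lower and none higher, with a median of -0.36. Tmem38b, a potassium channel of that compartment whose loss causes brittle bone in humans, was at 3.88 FPKM in the JAK2 V617F library and 319.9 FPKM in the control library (log2 ratio -6.04). Its locus also holds the ribosomal gene n-R5s185, which shares 119 of its exon bases. That gene's part in the value was not tested. Fkbp7, a relative of Fkbp10, was at 8.96 FPKM in the JAK2 V617F library and 18.9 FPKM in the control library, a call at the threshold (-1.001) that was lost under all 4 other scalings. The general chaperone Hspa5 was at 383.2 FPKM in the JAK2 V617F library and 249.3 FPKM in the control library (0.62).

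None of the 7 procollagen export genes with a row was called (median -0.24). The farthest were Sec23a, a coat protein of export vesicles, at 8.21 FPKM in the JAK2 V617F library and 13.2 FPKM in the control library (-0.62), and Klhl12, which enlarges those vesicles for collagen, at 18.8 and 27.9 FPKM (-0.55). Among 5 propeptide proteases and enhancers, 1 was called lower (median -0.43). This was Adamts14, a procollagen N-proteinase, at 1.49 FPKM in the JAK2 V617F library and 4.29 FPKM in the control library (-1.08, and -0.96 with equal sums over all rows). Pcolce2 was at 10.6 and 7.37 FPKM, JAK2 V617F first (0.47).

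Of the 11 fibrillar collagen genes, 2 were called lower and none higher (median -0.32). Col24a1, a minor fibrillar collagen of bone, was at 9.07 FPKM in the JAK2 V617F library and 26.8 FPKM in the control library (-1.47). Col11a2, which is best known from cartilage, was at 26.0 and 59.2 FPKM (-1.16, and -0.98 with equal sums over all rows). By contrast Col2a1, the main collagen of cartilage, was at 238.4 FPKM in the JAK2 V617F library and 177.7 FPKM in the control library (0.42), and Col3a1 at 37.8 and 32.3 FPKM (0.22). Of 6 elastin-related genes and lysyl oxidase partners, 1 was called higher and none lower (median -0.56). Fmod, which binds collagen fibrils and lysyl oxidase, was at 44.2 FPKM in the JAK2 V617F library and 13.8 FPKM in the control library (1.61). Postn, a matrix protein that assists Lox activation, was at 15.5 and 29.6 FPKM (-0.89). Eln, which encodes elastin, was at 0.532 FPKM in the JAK2 V617F library and 0.525 FPKM in the control library and did not reach the minimum.

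**Figure D5:**
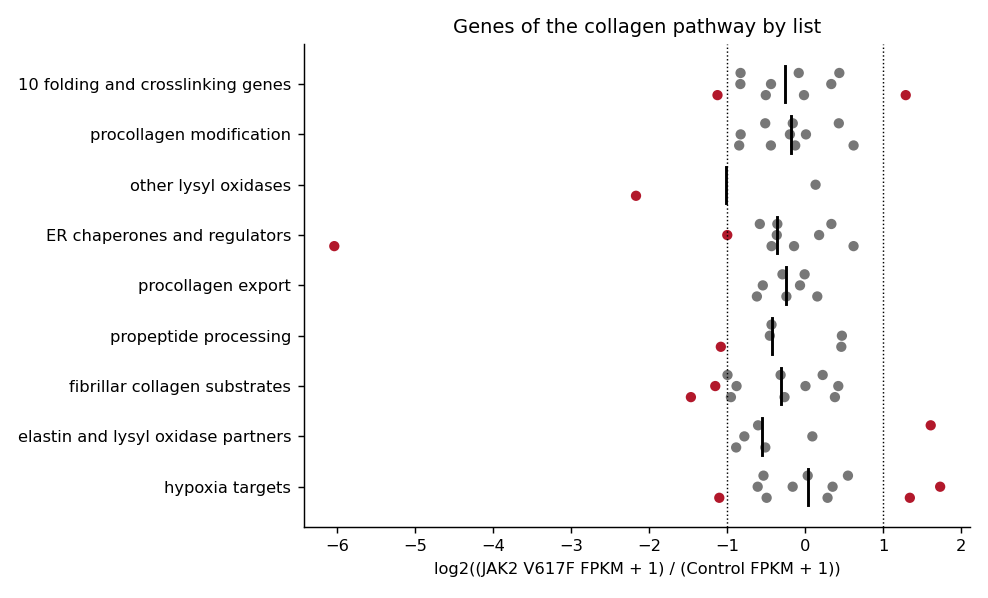
Log2((JAK2 V617F FPKM + 1)/(control FPKM + 1)) of each gene at 1 FPKM or more, by list, 1 library per genotype; red points are called at 2-fold (dotted lines) and black bars are medians. Tmem38b (-6.04) and Loxl3 (-2.17) lie farthest to the left, and the medians of the 10 genes (-0.26) and of the fibrillar collagens (-0.32) are both below 0.

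Hypoxia targets were counted because P4ha1, P4ha2, Plod2 and Lox are known targets of hypoxia-inducible factors. Of 11 other targets, 1 was called lower and 2 higher, with a median of 0.03, so the list had no common direction. Ankrd37 was at 4.76 FPKM in the JAK2 V617F library and 0.739 FPKM in the control library, and Egln3, an oxygen-sensing prolyl hydroxylase, at 3.65 and 0.836 FPKM. Car9 was at 0.799 FPKM in the JAK2 V617F library and 2.86 FPKM in the control library (-1.10, and within 2-fold with equal sums over all rows). Each of these called genes reached 1 FPKM only in the library where it was higher, so the minimum fixed the direction of its call. The 8 targets within 2-fold reached 1 FPKM in both libraries.

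Markers of the cell types that make these enzymes differed between the libraries as well. The 6 osteoblast markers summed to 525.3 FPKM in the JAK2 V617F library and 1084 FPKM in the control library, 3 of them called lower and none higher. Bglap, Dmp1 and Sp7 were the 3 called, against a background of 8.68% lower and 10% higher. Alpl, another marker on that list, was at 40.4 FPKM in the JAK2 V617F library and 36.2 FPKM in the control library (log2 ratio 0.16). The 6 chondrocyte markers summed to 324.1 and 211.1 FPKM in the same order, 4 called higher (Sox9, Comp, Matn3 and Col9a1) and none lower. Matn3 (8.14 and 0.333 FPKM) reached the minimum only in the JAK2 V617F library, so it could not be called lower. The 6 mesenchymal stromal markers summed to 868.5 and 1112 FPKM with no call, and the 6 tendon and fibroblast markers to 334.0 and 540.3 FPKM with 2 lower and 1 higher (Tnmd at 0 in both). Pdgfra is on both of these lists, and Col2a1 is on the chondrocyte list and the collagen list. Scx, a tendon marker called lower, reached the minimum only in the control library (0.500 FPKM in the JAK2 V617F library and 2.03 FPKM in the control library). Medians lay below 0 for the osteoblast (-0.87), tendon and fibroblast (-0.70) and mesenchymal stromal (-0.37) lists and above 0 for the chondrocyte list (1.26).

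Transcripts known from blood, endothelial and smooth muscle cells were present too. For each list here, the background is again 8.68% called lower and 10% called higher over all protein-coding genes. The 6 leukocyte markers summed to 311.7 FPKM in the JAK2 V617F library and 238.0 FPKM in the control library, 2 called higher. The 6 macrophage markers summed to 28.8 and 6.84 FPKM, 4 of the 4 at 1 FPKM or more called higher and C1qa at 0 in both. The 6 erythroid markers summed to 951.8 FPKM in the JAK2 V617F library and 2028 FPKM in the control library, 1 called lower. The 4 platelet markers summed to 44.7 and 7.73 FPKM, 2 called higher (Pf4 and Ppbp). Both were at 0 in the control library, so neither could be called lower. The 5 endothelial markers summed to 31.4 and 27.6 FPKM with 1 called higher, but 3 of the 5 lay below 0 (median log2 ratio -0.07). The call was Emcn (5.15 and 0.196 FPKM), which reached the minimum only in the JAK2 V617F library. The 4 smooth muscle markers summed to 56.8 and 23.5 FPKM with 1 called higher, Acta2 (43.2 and 12.2 FPKM). Of the 3 smooth muscle markers at 1 FPKM or more, 1 lay below 0. The part of any of these cells in the values of the 10 genes was not tested.

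The protein-coding genes with the most similar pair of levels were found by distance in log2(FPKM + 1) over the 2 libraries. Nearest to P4ha2 were Spr (9.95 FPKM in the JAK2 V617F library and 22.3 FPKM in the control library) and Rcbtb2 (9.90 and 22.9 FPKM). Nearest to Plod1 were Tnfrsf1b (19.5 FPKM in the JAK2 V617F library and 7.72 FPKM in the control library) and 4632428N05Rik (20.6 and 7.35 FPKM). Nearest to Plod2 were Ubap2l (125.9 FPKM in the JAK2 V617F library and 125.8 FPKM in the control library) and Cyc1 (123.4 and 124.7 FPKM). With only 2 libraries such likeness is common: 79 genes lay within 0.25 of P4ha2, 46 of Plod1 and 96 of Plod2.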

How the data were processed

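RNA of nestin-GFP+ bone marrow cells was amplified with the Ovation RNA-Seq System v2 and sequenced on a Genome Analyzer IIx, per the labels' protocols. The values are FPKM, deposited by the authors. The build GRCm38 and the tools Cufflinks, Bowtie2 2.0.6, TopHat2 2.0.7 and cutadapt 1.2.1 were used, per the submitters' processing notes. The annotation release, strand setting and scaling between libraries, not given in the sources used here, could shift ratios, as could amplification without molecular identifiers.

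Log2 ratios used a pseudocount of 1 FPKM, which understates differences of low genes, a minimum of 1 FPKM in at least 1 library and a 2-fold threshold. Loci are given 1-based. The background was 19924 protein-coding genes (RefSeq GRCm38.p6 symbols and synonyms) with a row of their own; 12435 passed. Rows naming several genes (401) were left out. The value of 1 fragment (0.162 FPKM per kilobase of effective length in the JAK2 V617F library, 0.190 in the control library) came from 5611 genes with 1 transcript in GENCODE vM21. Transcript lengths were shortened by 160 nt, the offset of 31 tried that gave the sharpest steps. Of low values, 84.6% and 81.6% lay within 0.2 of whole fragments, a fit to the same values. Intervals for genes with several coding transcripts rest on the longest and were chosen after the values were seen. Alternatives were other pseudocounts, minimums, scalings, a lower fold threshold and another background. Calls and the depth estimate were tested on simulated data. Protein sequences were not analysed here. The genes, lists and rules were chosen with earlier results of these data known. Genes were named by rule: all 10, called genes and the 2 farthest from 0 of each list, 4 collagens, and nearest neighbours; genes outside it, such as partners of a named gene, were named after their values were seen. Python 3.11.15, pandas 2.3.3, NumPy 2.4.6 and SciPy 1.17.1 were used.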

Additional observations from a re-analysis of the deposited data

How the results depend on the processing

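Pseudocounts of 0.1 and 5, no minimum and a minimum of 5 FPKM cannot move a gene across 0. They therefore say nothing on the direction of any of the 10 genes, and only scaling can change it. A larger pseudocount shrinks ratios by construction: with 5, 0 genes were called lower and 0 higher, with P4ha2 at -0.90 and Plod1 at 0.99, and the background shares were 3.02% lower and 2.35% higher. With a threshold of 1.5-fold, 3 genes were called lower against 19.2% of the background, and the number called higher stayed at 1, against 19.0%. With no minimum the background shares were 5.42% lower and 6.25% higher. Over the 4 rescalings, 5 or 6 of the 10 genes lay below 0, since Plod2 and Loxl1 are near 0, and the members' median ranged from -0.22 to -0.09. With equal sums over all rows, log2 ratios moved up by about 0.18, and 0 genes were called lower (P4ha2 at -0.96). The cause of the unequal sums was not tested. With all rows that name 1 gene as background, 25.2% were called in either direction. Without Loxl3 and Loxl4, Lox supplied 62.6% of the lysyl oxidase FPKM in the JAK2 V617F library and 69.6% in the control library. With an offset of 0 or 200 nt, 1 fragment was worth 0.191 or 0.154 FPKM per kilobase in the JAK2 V617F library and 0.213 or 0.181 in the control library. The planned comparison of protein sequences was not run. No paired analysis was possible because there was 1 library per genotype. Leaving out a library was not possible for the same reason.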

Other observations

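Pcolce, the enhancer of procollagen C-proteinase, shares its row with Fbxo24 and was left out of the counts above. That row was at 106.1 FPKM in the JAK2 V617F library and 204.1 FPKM in the control library (log2 ratio -0.94). The summed P4ha1, P4ha2 and P4ha3 FPKM amounted to 14.7% of that of their partner P4hb in the JAK2 V617F library and 25.01% in the control library, a ratio chosen after the values were seen.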
